A study of Homo sapiens with 2 samples.

Results

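The genes described here are 4 enzymes of lipid synthesis, FASN, ACACA, GPAM and DGAT2, measured in HepG2 cells after knockdown of the noncoding transcript TUC338. They were taken by gene symbol from the probe annotation of the array, which gave 138 probe sets with 1 symbol, 41 for FASN, 64 for ACACA, 24 for GPAM and 9 for DGAT2. They are 4 of 2792 genes in the table. The 4 were chosen with earlier results of these data known, so their ranks, shares and gaps below are descriptions only. No probe set was annotated to TUC338 itself, so the knockdown could not be checked here. No probe set with several symbols named any of them. HepG2 is a human hepatoma cell line. One group was transfected with a locked nucleic acid (LNA) oligonucleotide directed at TUC338, and the other with a control LNA. Both were grown on collagen-coated plates, and neither LNA dose nor time after transfection is given in the sources used here. Each group was 1 array, so no test could be run, no p-value is given, and every difference below is between 2 arrays with no replicate check.

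Hepatocytes make fatty acids from acetyl-CoA in the cytosol. ACACA, acetyl-CoA carboxylase alpha, turns acetyl-CoA into malonyl-CoA, and FASN, fatty acid synthase, extends the chain from malonyl-CoA to palmitate. The fatty acids are then joined to glycerol by acyltransferases. GPAM, the mitochondrial glycerol-3-phosphate acyltransferase, performs the first of these steps, and DGAT2, a diacylglycerol acyltransferase, the last step of triglyceride synthesis. FASN, ACACA and GPAM are textbook targets of the transcription factor SREBP-1c, which is encoded by SREBF1.

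Levels are deposited array signals on the log2 intensity scale, and a difference is knockdown minus control. The median gene was 0.28 higher on the knockdown array (1.22-fold), the median over 2792 genes of the mean difference over probe sets. Differences are therefore given relative to that median gene unless called deposited. The table does not hold every gene: of 126 lipid genes listed for comparison, 35 were in it. The median gene and all shares given here refer to the genes and probe sets in the table. Over all 45200 probe sets the median intensity was 422 for the control and 507 for the knockdown. An SD over probe sets describes the scatter of a gene's probe sets in this 1 pair of arrays, and not the spread between cultures. Of the 19 hepatocyte and hepatoma markers checked, 6 were in the table, with mean levels from 10.25 (FGG) to 12.99 (APOA2) and differences from -0.24 to 0.27. No adipocyte, leukocyte or endothelial marker of the lists was in the table, so those cell types could not be checked. Of 6 fibroblast markers 2 were in the table, with mean levels of 8.20 for COL1A1 and 7.91 for PDGFRB. The difference of COL1A1 was -0.90 ± 0.33 (SD over 14 probe sets) and that of PDGFRB 0.22 ± 0.38 over 7, and the part of either in the results was not tested. In RNA from a whole culture, fewer expressing cells and less RNA per cell cannot be told apart.

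The 2 enzymes of fatty acid synthesis were lower on the knockdown array and the 2 acyltransferases were higher. FASN had a mean difference of -0.87 ± 0.19 (SD over 41 probe sets), ACACA -0.55 ± 0.24 (64 probe sets), DGAT2 0.22 ± 0.20 (9) and GPAM 0.78 ± 0.15 (24). The mean of the FASN and ACACA values was -0.71, and that of the GPAM and DGAT2 values 0.50. The synthesis steps of these 4 genes thus lay 1.21 below the acyltransferase steps on the log2 scale, a 2.31-fold gap in the ratio of knockdown to control. The root mean square of the 4 SDs over probe sets was 0.20, and the SD over the means of 2742 genes was 0.30. Neither SD measures the spread between cultures. This gap does not depend on the offset between the arrays. It does not extend to every acyltransferase in the table. The other glycerolipid and phospholipid acyltransferases of the lists in the table, DGAT1 (-0.27), AGPAT5 (-0.20) and LPCAT3 (-0.42), lay below the median gene. Outside the lists, the phospholipid acyltransferases LCLAT1 (0.11) and MBOAT7 (0.12) lay above it, and the class was not counted in full. The directions of the 4 gene means were the same in deposited values, which were -0.59 for FASN, -0.26 for ACACA, 0.50 for DGAT2 and 1.06 for GPAM.

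**Figure D1:**
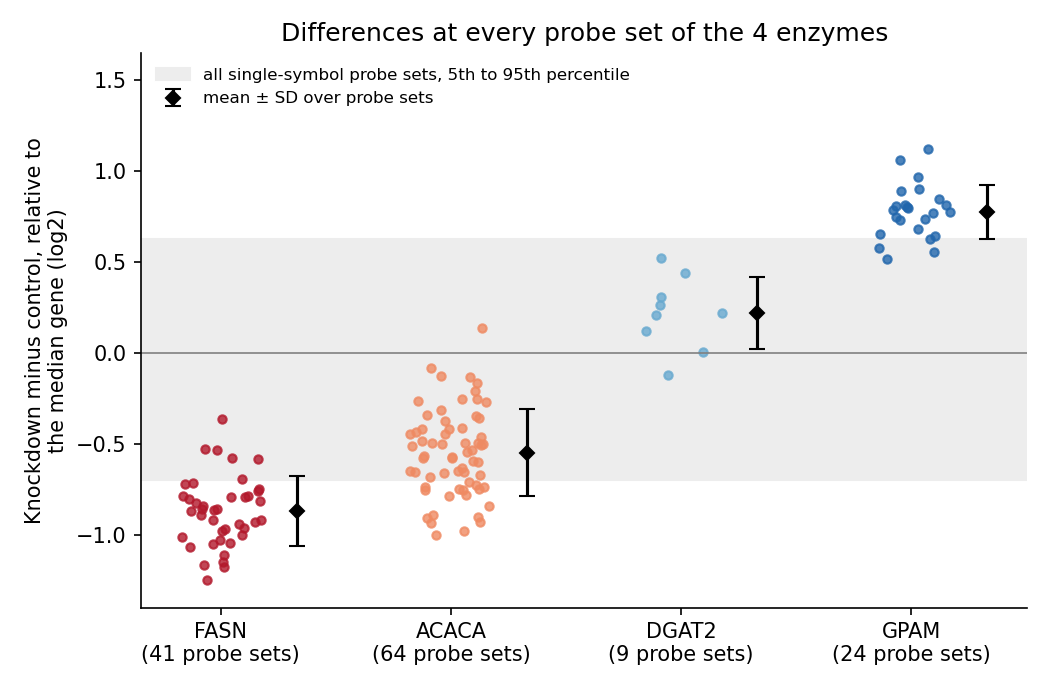
Knockdown minus control difference of every probe set (points, log2, relative to the median gene) for the 4 enzymes, with the mean ± SD over probe sets (diamonds) and the 5th to 95th percentile of all single-symbol probe sets (grey band, -0.70 to 0.63). All FASN points lie below 0 and all GPAM points above it, while DGAT2 stays inside the band.

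FASN, the enzyme that makes palmitate, was lower at every probe set. Its 41 probe sets had levels from 8.22 to 11.69 on the control array, with a median of 10.24, and from 8.14 to 11.04 on the knockdown array, with a median of 9.51. The levels of different probe sets overlap between the arrays, but within each probe set the knockdown value was the smaller, in deposited values as well. Of all single-symbol probe sets, 52.1% lay below the median gene and 24.8% were lower in deposited values. The brightest FASN probe set, 3774687, had an intensity of 3296 in the control and 2106 in the knockdown. The dimmest, 3774636, had 299 and 282, the smallest difference of the gene at -0.36. The largest was at probe set 3774655, with an intensity of 1425 in the control and 730 in the knockdown, a difference of -1.25. Of the 41, 36 lay below the median gene by 1.5-fold or more, against 8.19% of all single-symbol probe sets, and 11 by 2-fold or more, against 1.13%.

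As a whole, FASN stood at 54.7% of the control level relative to the median gene, or 66.6% in deposited values. Of the 2742 genes with 4 or more probe sets, 25 including FASN lay as far below or further, which is 0.912% of them. A mean at least 1.5-fold lower was found for 3.57% of these genes. FASN was 1 of 6 genes among the 122 with 40 or more probe sets (4.92%) in which every probe set lay below the median gene.

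ACACA, which supplies the malonyl-CoA used by FASN, was lower at most probe sets and by less. Its 64 probe sets ranged from 6.91 to 10.86 on the control array (median 8.96) and from 6.73 to 10.64 on the knockdown array (median 8.61). Of these, 63 lay below the median gene, against 52.1% of all single-symbol probe sets. In deposited values 54 were lower, against 24.8% of all, and 10 were higher. The gene stood at 68.4% of control relative to the median gene and at 83.3% in deposited values, or 1.46-fold lower on the first scale. Means this low or lower were found for 127 of the 2742 genes (4.63%).

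The probe sets of ACACA spread more widely than those of FASN. Of the 64, 28 lay below the median gene by 1.5-fold or more, against 8.19% of all single-symbol probe sets. At 2-fold there was 1, a share near the 1.13% of all: probe set 3754579, with an intensity of 755 in the control and 459 in the knockdown. At the brightest, 3754619, the intensities were 1858 and 1595, a difference of -0.50. The 1 probe set above the median gene was 3754516, which was dim on both arrays, with intensities of 176 in the control and 236 in the knockdown, a difference of 0.14. In the order of the probe-set numbers, the last 16 held 6 of the 10 probe sets that were higher in deposited values. Their mean difference was -0.44 ± 0.27 (SD) at a mean level of 8.25. The 3 earlier runs of 16 had means of -0.57, -0.60 and -0.58 at mean levels of 8.78, 8.87 and 8.80. The positions of the probe sets within the gene were not used here, and the part of the lower level in this difference was not tested.

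GPAM, which starts glycerolipid synthesis, was higher at every probe set and was the most uniform of the 4 genes. Its 24 probe sets ranged from 6.32 to 10.15 on the control array (median 8.84) and from 7.45 to 11.23 on the knockdown array (median 9.78). All 24 lay above the median gene, where 47.9% of all single-symbol probe sets lay, and all 24 were higher in deposited values, as were 75.2% of all. The brightest, 3307020, had an intensity of 1136 in the control and 2409 in the knockdown. The dimmest, 3307017, had 80.0 and 175, so the ratio of the arrays was 2.12 at the bright end and 2.19 at the dim end. The largest difference, 1.12, was at probe set 3307006 (462 in the control, 1226 in the knockdown) and the smallest, 0.52, at 3307025 (1128 and 1964).

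GPAM was 1.71-fold higher relative to the median gene and 2.08-fold higher in deposited values. At least 1.5-fold was reached relative to the median gene by 21 of its 24 probe sets, against 6.15% of all, and 2-fold by 2, against 0.707%. In deposited values 17 of the 24 reached 2-fold, against 3.1% of all. Among the 2742 genes, 19 including GPAM had a mean as high or higher (0.693%), and 2.3% had a mean at least 1.5-fold higher. GPAM was also 1 of 21 genes among the 634 with 20 or more probe sets (3.31%) in which every probe set lay above the median gene. Its SD over probe sets of 0.15 was as small or smaller in 3.68% of the 2742 genes, and the pooled SD within genes was 0.28.

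DGAT2, which adds the last acyl chain of triglycerides, was higher by less. Its 9 probe sets had levels of 8.26 to 10.38 on the control array (median 9.68) and of 8.43 to 10.89 on the knockdown array (median 10.08). All 9 were higher in deposited values, where 75.2% of all single-symbol probe sets were, and 8 lay above the median gene, where 47.9% of all lay. None reached 1.5-fold relative to it, against 6.15% of all single-symbol probe sets in the higher direction and 8.19% in the lower. The brightest, 3340680, had an intensity of 1335 in the control and 1892 in the knockdown. The widest difference was 0.52 at 3340688 (821 and 1434), and the only negative one was -0.12 at 3340675 (307 and 344). The gene mean was 1.16-fold above the median gene, and 20.6% of the 2742 genes had a mean as high or higher, so DGAT2 lay within the bulk of the table.

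**Figure D2:**
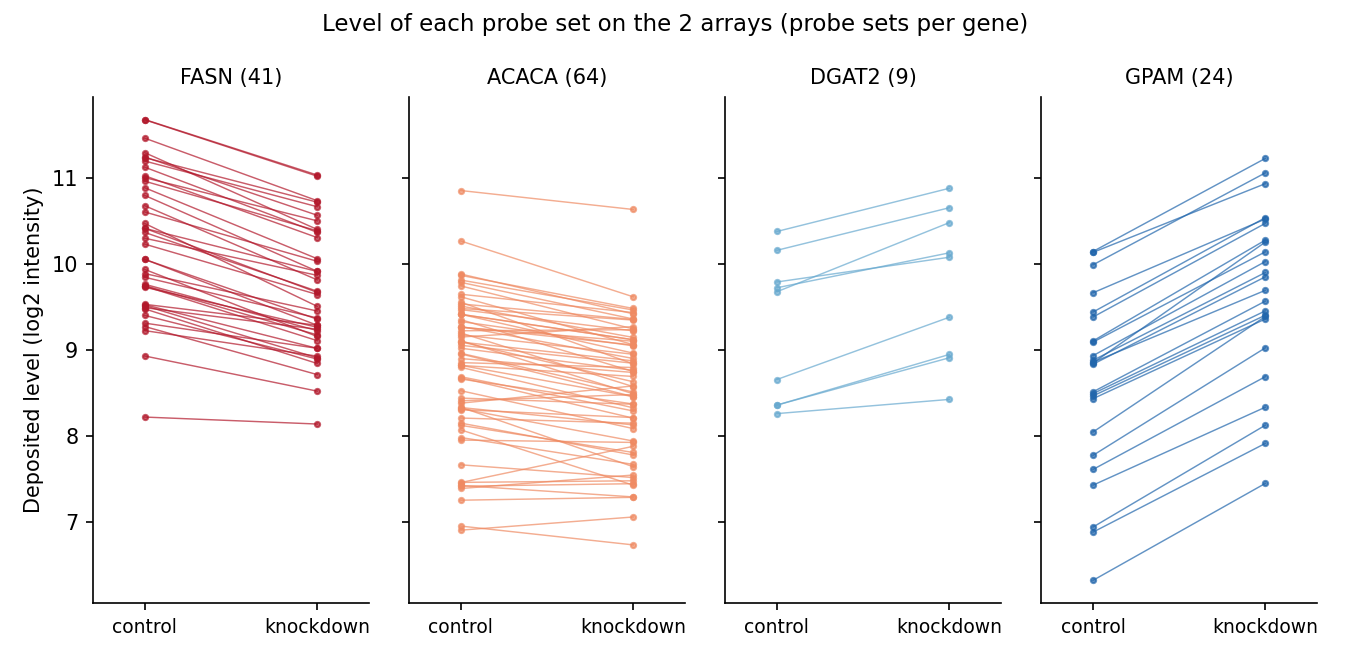
Deposited level (log2 intensity) of each probe set on the control and the knockdown array, joined by a line, for FASN, ACACA, DGAT2 and GPAM. Every FASN line slopes down and every GPAM and DGAT2 line slopes up, while 10 of the 64 ACACA lines slope up.

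In order of their differences the genes ran FASN, ACACA, DGAT2, GPAM. Neighbours in this order overlapped at the level of probe sets. FASN and ACACA differed by -0.32 in their means, with a root mean square SD of 0.22, and 30 of the 41 FASN probe sets lay within the range of ACACA. The means of ACACA and DGAT2 differed by -0.77, and 2 ACACA probe sets reached the lowest DGAT2 value. GPAM and DGAT2 differed by 0.56, and 1 DGAT2 probe set reached the lowest of GPAM. Further apart, FASN and GPAM differed by -1.65, or 3.13-fold, and their probe sets did not overlap: the highest FASN value was -0.36 and the lowest GPAM value 0.52. FASN and DGAT2 differed by -1.09 and ACACA and GPAM by -1.32, also with no overlap. How often the probe sets of other gene pairs overlap was not counted, so these overlaps are descriptions only. They come from the same probe sets as the means and are not separate evidence of a difference.

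**Figure D3:**
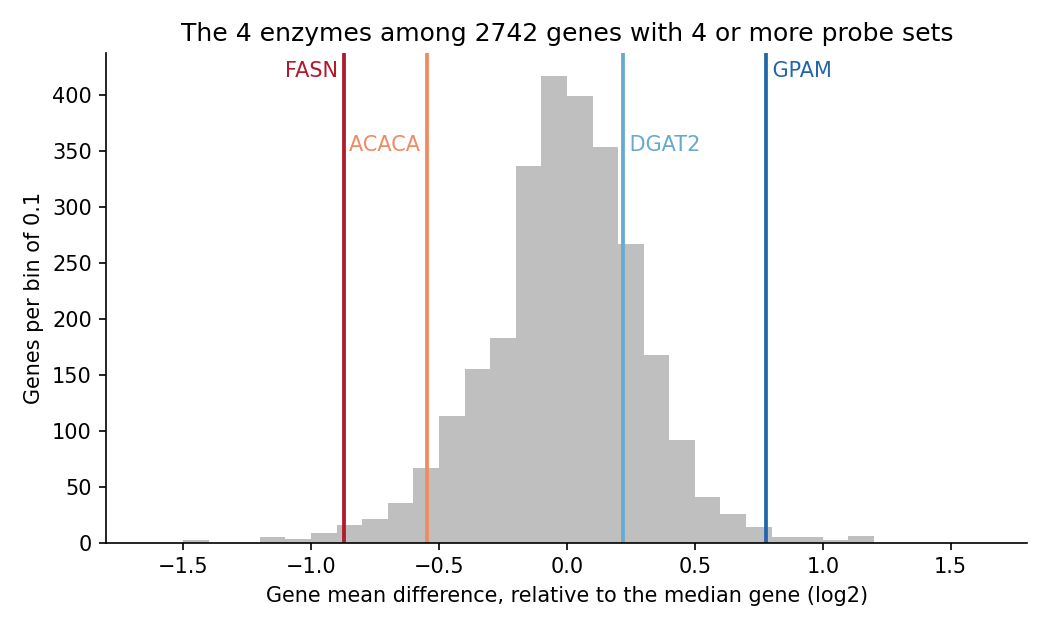
Histogram of the mean difference of 2742 genes with 4 or more probe sets (log2, relative to the median gene; bars count genes per bin of 0.1), with lines at the 4 enzymes. FASN (-0.87) and GPAM (0.78) lie in opposite tails, ACACA (-0.55) lies on the lower flank and DGAT2 (0.22) within the main body.

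The difference went with the level of the probe set in some of these genes. Over the 41 FASN probe sets the Pearson correlation of mean level and difference was -0.53, and over the 64 of ACACA it was -0.37. The points of each correlation share the same 2 arrays, and the level enters both axes, so these are descriptions only. The 14 dimmest FASN probe sets had a mean difference of -0.72 ± 0.18 (SD) and the 13 brightest -0.97 ± 0.13. In ACACA the 22 dimmest had -0.45 ± 0.27 and the 21 brightest -0.61 ± 0.20. In GPAM the correlation over 24 was -0.18, with 0.82 ± 0.15 over its 8 dimmest and 0.75 ± 0.13 over its 8 brightest. In DGAT2 the correlation over 9 probe sets was 0.15, with 0.15 ± 0.23 over the 3 dimmest and 0.32 ± 0.18 over the 3 brightest. Over all single-symbol probe sets the median difference went from 0.03 in the dimmest 4258 to -0.07 in the brightest 4258. After this trend was removed by lowess, the gene means were -0.85 for FASN, -0.56 for ACACA, 0.78 for GPAM and 0.23 for DGAT2.

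**Figure D4:**
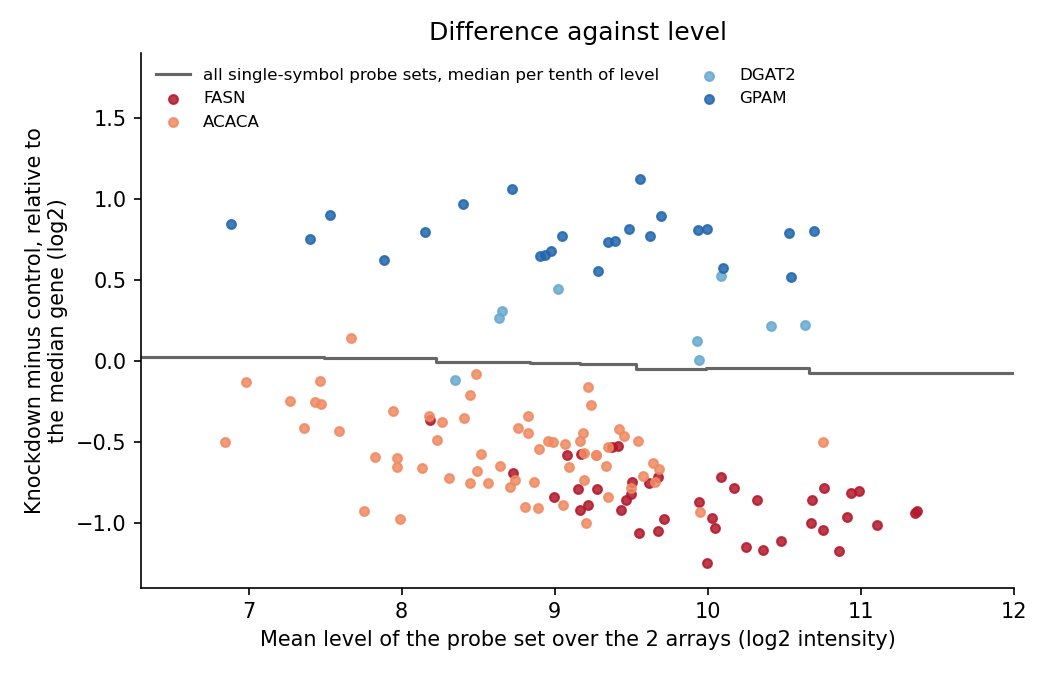
Difference of each probe set (log2, relative to the median gene) against its mean level over the 2 arrays (log2 intensity). The grey line is the median of all single-symbol probe sets in each of 10 bins of level that hold near-equal numbers of probe sets. The brighter FASN points lie lower than the dimmer ones, while GPAM points lie between 0.52 and 1.12 from level 6.89 to 10.69.

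The starts of ACACA and GPAM are shown here because no window was available for FASN or DGAT2. The 300-base windows, from RefSeq on GRCh38.p14, run 5′ to 3′ on the minus strand from 250 bases before to 50 bases after each annotated start, in lower case with motif matches in capitals. The motifs, searched on both strands, were the GC box GGGCGG bound by SP1, the CCAAT box CCAAT bound by NF-Y, the E-box CACGTG and a sterol response element TCACNCCAC. ACACA has 3 annotated starts in this set and GPAM has 1.
ACACA, chr17:37406787-37407086: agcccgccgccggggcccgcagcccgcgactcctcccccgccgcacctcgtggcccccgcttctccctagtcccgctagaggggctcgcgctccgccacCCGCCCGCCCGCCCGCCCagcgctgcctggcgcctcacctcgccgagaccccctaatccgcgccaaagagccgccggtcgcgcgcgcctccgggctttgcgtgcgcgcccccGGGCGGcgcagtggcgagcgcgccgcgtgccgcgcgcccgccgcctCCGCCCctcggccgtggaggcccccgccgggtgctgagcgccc
ACACA, chr17:37359047-37359346: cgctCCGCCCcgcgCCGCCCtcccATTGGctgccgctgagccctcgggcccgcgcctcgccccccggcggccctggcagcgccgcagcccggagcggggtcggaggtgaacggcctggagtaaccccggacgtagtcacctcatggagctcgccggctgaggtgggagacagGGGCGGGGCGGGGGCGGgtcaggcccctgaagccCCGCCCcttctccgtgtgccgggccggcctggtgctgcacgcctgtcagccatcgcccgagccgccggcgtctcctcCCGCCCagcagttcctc
ACACA, chr17:37299718-37300017: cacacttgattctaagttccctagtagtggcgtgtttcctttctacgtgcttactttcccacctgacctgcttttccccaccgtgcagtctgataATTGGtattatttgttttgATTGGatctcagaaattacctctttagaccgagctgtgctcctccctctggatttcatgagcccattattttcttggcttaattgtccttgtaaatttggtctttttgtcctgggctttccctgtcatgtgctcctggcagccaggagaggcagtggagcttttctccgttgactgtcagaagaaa
GPAM, chr10:112183716-112184015: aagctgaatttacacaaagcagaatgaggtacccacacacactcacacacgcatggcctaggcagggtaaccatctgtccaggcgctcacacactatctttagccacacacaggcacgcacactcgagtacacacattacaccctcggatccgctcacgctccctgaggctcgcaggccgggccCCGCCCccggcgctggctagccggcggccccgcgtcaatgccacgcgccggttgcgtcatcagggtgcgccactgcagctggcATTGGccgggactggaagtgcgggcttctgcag

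The first ACACA window held 6 GC boxes, some of them overlapping, and the second 7 together with 1 CCAAT box. The third held 2 CCAAT boxes and no GC box. The GPAM window held 1 of each. Over 35116 such windows 45.0% held a GC box and 34.6% a CCAAT box. None of the 4 windows held the letters searched for the E-box (7.26% of all windows) or the sterol response element (1.13%). A match here is a string of letters and not a shown binding site. FASN and DGAT2 had no window in this set.

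The chromosomal neighbours of FASN, ACACA and GPAM in the table lay closer to the median gene than these enzymes did. Most genes of the table did so too, so this is a description only. Means as far out on the same side were found for 0.912% (FASN), 4.63% (ACACA) and 0.693% (GPAM) of the 2742 genes. The 3 nearest genes of the table on each side of FASN, on chromosome 17, had means between -0.26 (GPS1) and 0.19 (DUS1L). The 6 around ACACA, also on chromosome 17, lay between -0.02 and 0.39. The 6 around GPAM, on chromosome 10, lay between -0.18 (ABLIM1) and 0.33 (FHIP2A). The nearest gene after GPAM, ACSL5, an acyl-CoA synthetase, had 0.15 ± 0.18 over 27 probe sets. The neighbours of DGAT2 on chromosome 11 ran from -0.58 (SERPINH1) to 0.51 (CLNS1A), a span that holds DGAT2 itself.

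Other genes of lipid metabolism were compared from 8 lists of 126 genes, of which 35 were in the table, the 4 enzymes among them. Of the 31 others, 7 had a mean lower by at least 0.32 (log2) and none had one higher by that much, against 14% and 11.6% of all 2742 genes. None of the 31 reached 1.5-fold in either direction, as 3.57% of all 2742 genes did in the lower direction and 2.3% in the higher. Their median was -0.06, against 0 for all genes by construction, and 18 of the 31 lay below the median gene. A mean less than 0.28 below the median gene was above 0 in deposited values. For the probe-set counts that follow, the shares over all single-symbol probe sets were 52.1% below the median gene and 24.8% lower in deposited values. How often every probe set of a gene of like size lay below was not counted.

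The remaining genes of fatty acid synthesis, elongation and desaturation in the table were SCD and ACACB. SCD, the stearoyl-CoA desaturase, had a mean of -0.32 ± 0.21, just short of that limit. Its 11 probe sets all lay below the median gene, and 6 of them were lower in deposited values. ACACB, the carboxylase isoform that restrains fatty acid oxidation, had -0.13 ± 0.28 over 36 probe sets. TKT, the transketolase of the pentose phosphate pathway, was the 1 gene measured in the list of acetyl-CoA and NADPH supply, and had -0.44 ± 0.16 with each of its 19 probe sets negative.

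In the glycerolipid list the acyltransferases were not uniform. DGAT1, the other diacylglycerol acyltransferase, had a mean of -0.27 ± 0.21 over 30 probe sets, 27 of them below the median gene, while DGAT2 had 0.22. In deposited values DGAT1 was at 0.01 and DGAT2 at 0.50. AGPAT5, which acylates lysophosphatidic acid, had -0.20 ± 0.25 over 19 probe sets. LPIN2, a phosphatidate phosphatase, had 0.28 ± 0.27 over 22. Of this list 5 genes were in the table; thus 3 lay above the median gene and 2 below it, and GPAM was the only one past 0.32 in either direction. Among the phospholipid enzymes, PCYT2, of phosphatidylethanolamine synthesis, had -0.42 ± 0.18 negative at all 13 probe sets, and LPCAT3, a lysophospholipid acyltransferase, had -0.42 ± 0.21, negative at 12 of 13. CHPT1, a cholinephosphotransferase, had 0.16 ± 0.30.

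Among genes of fatty acid activation, ACSL1 had a mean of -0.52 ± 0.29 and was negative at 18 of 19 probe sets, whereas ACSL5, given above, and SLC27A2 (0.28 ± 0.36 over 8) were positive. Among genes of lipid droplets and lipoproteins, PLIN3, a coat protein of lipid droplets, had -0.56 ± 0.15 and was negative at all 10 probe sets, in deposited values too. CIDEB, a lipid droplet protein of hepatocytes, had -0.36 with an SD of 0.49 over 10, so its probe sets disagreed. PNPLA2, the triglyceride lipase, had -0.29 ± 0.09 over 6, while LIPC, BSCL2 and APOB lay between -0.03 and 0.16. The 5 fatty acid oxidation genes ran from -0.22 (HADHB) to 0.20 (ETFDH), and none was past 0.32 in either direction.

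Of the 8 regulators in the table, 1 was past this limit. RXRA, the partner of the liver X receptors, had -0.36 ± 0.28 negative at all 10 probe sets, with 5 of them lower in deposited values. SREBF1 had -0.16 ± 0.30 over 13 probe sets and SREBF2 -0.06 ± 0.24 over 18, and both means were above 0 in deposited values (0.12 and 0.23). The liver X receptor alpha gene NR1H3 had 0.23 ± 0.38, INSIG2, a retention factor of the SREBP pathway, 0.27 ± 0.42, and the NF-Y subunit NFYC -0.20 ± 0.29. NR1H2 (0.06) and the AMPK subunit gene PRKAG1 (-0.04) lay near the median gene.

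**Figure D5:**
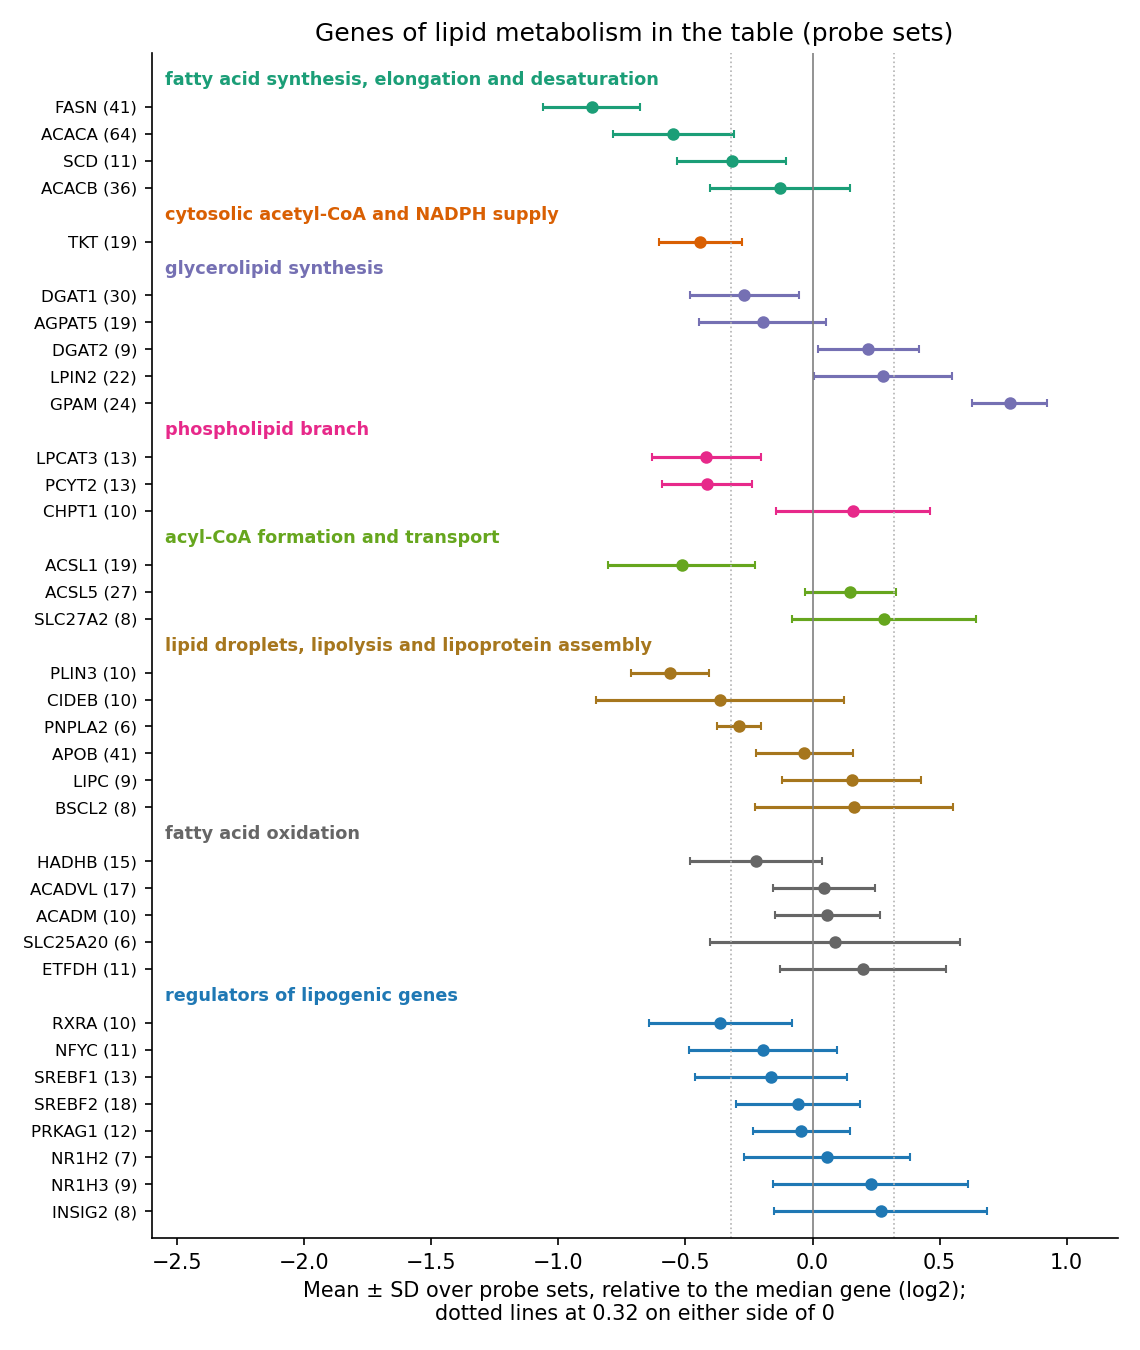
Mean difference ± SD over probe sets (log2, relative to the median gene) of the 35 genes of the 8 lists in the table, with the number of probe sets in parentheses and dotted lines at 0.32 on either side of 0. GPAM is the only gene right of the upper line, and FASN, ACACA and 7 other genes lie left of the lower line.

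The genes most like each enzyme were taken as the 3 with the nearest mean difference, among genes with 10 or more probe sets and a mean level at or above that of the median gene. With 2 arrays this likeness is that of a single number. For FASN they were IL1R1 (-0.87), PGK1 (-0.88) and POLR1A (-0.86), from 954 genes. For ACACA they were CHST15 (-0.56), PLIN3 (-0.56) and ERBB2 (-0.56), from 955. For GPAM they were ZDHHC9 (0.78), BLTP3A (0.76) and AJUBA (0.81), all with larger SDs over probe sets (0.25 to 0.31) than GPAM. For DGAT2 they were SART3, SLC1A4 and ETF1, each at 0.22.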

How the data were processed

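Total RNA of 2 HepG2 samples was isolated with Trizol, amplified and labelled with biotin, per the labels' protocols; the annotation supplied names an Affymetrix human exon platform. The authors deposited 1 value per probe set and array; how it was normalized and summarised, and on which build, is not stated in these sources. The deposited values were read as natural log intensities: of 41367 and 42089 exponentials under 2000, 1154 and 1167 fell in the fullest bin of 0.001 modulo 0.5, against means of 82.7 and 84.2 per bin. They were divided by the natural log of 2. Here 42575 of 45200 probe sets had 1 symbol, 1055 several and 1570 none. Of 2795 symbols 331 were updated through RefSeq (GRCh38.p14), and 15 that were not current and lacked a single matching synonym were kept as listed. A gene was the mean over its probe sets, centred on the median gene. Genes were counted at 1.5-fold, and list genes named at 0.32 (log2) with 4 or more probe sets; the alternatives are given at the end. Members and lists were chosen with earlier results of these data known. Further list genes were named, and probe sets grouped by level and number and neighbours compared, after values were seen. The summary was tested on simulated data. The number of arrays, 1 per group, limits the precision; samples were grouped by the transfection label. Python 3.11.15, pandas 2.3.3 and statsmodels 0.14.6 were used.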

Additional observations from a re-analysis of the deposited data

How the results depend on the processing

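The 4 gene means kept their direction under all 8 alternatives: FASN from -0.87 to -0.59, ACACA from -0.60 to -0.26, GPAM from 0.54 to 1.06 and DGAT2 from 0.15 to 0.50. Without centring the means moved by more than the SD over probe sets, to -0.59 for FASN, -0.26 for ACACA, 1.06 for GPAM and 0.50 for DGAT2. If the deposited values were log2 values, FASN would be -0.60, GPAM 0.54 and the gap between synthesis and acyltransferase steps -0.84. Otherwise that gap lay between -1.25 and -1.20. Of 105 FASN and ACACA probe sets 104 lay below the median gene. Without probe sets under the median level 69 did, of 69 left, because fewer were counted. Quantile normalization, lowess, leaving out the brightest 5% of probe sets, the median and the brightest probe set kept every mean within its SD over probe sets. No paired analysis was possible because each group is 1 array. For the same reason no array could be left out.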
